A study of Homo sapiens with 18 samples.

Results

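The joint effect of fenofibrate and ezetimibe on transcripts was set against the effects of each drug added together, in 49 of the 3647 genes that the authors listed for any drug treatment. The members were the gene identifiers present in all 3 deposited tables, which hold 102 genes for fenofibrate, 472 for ezetimibe and 3508 for the combination. A gene enters a table only when its log2 fold change against the vehicle is larger than 1 in size, and the largest adjusted p-value in a table was 0.0499. Just inside that limit, the authors' deposited table gave PCDH17 −1.01 with fenofibrate, MT1M 1.01 with ezetimibe and TMEM150A 1.03 with the combination. The same libraries that placed the genes in the tables enter the sums below. For genes that rise, low DMSO or high single-drug values help entry and also move a gene toward falling short of the sum. High combination values help entry and move it the other way. All libraries were made from Cal51, an established line of human breast cancer cells, after 8 h of treatment. The 4 groups were the vehicle DMSO, fenofibrate, ezetimibe, and fenofibrate plus ezetimibe, with 3 libraries each. Doses are not given in the labels, and they do not say whether replicates were cultured apart, so p-values measure only the spread between these libraries, which may be technical. A further 6 libraries of the series, of control and PKM2 knockout cells, are not analysed here.

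Fenofibrate is a fibrate, whose active acid is an agonist of the nuclear receptor PPARα, and is used to lower blood triglycerides. Ezetimibe lowers cholesterol uptake in the intestine by binding the sterol transporter NPC1L1. Of the 49 genes, 21 were on at least 1 of the 25 gene lists used here. In the integrated stress response, phosphorylation of the initiation factor eIF2α slows translation but favours that of the transcription factor ATF4, which then activates amino acid synthesis, transport and regulatory genes, among them DDIT3 and TRIB3. Low sterol in the endoplasmic reticulum releases the transcription factor SREBP2, which activates the genes of cholesterol synthesis.

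Reads in the 49 genes numbered 11363 to 13701 per DMSO library, 25685 to 30336 with fenofibrate, 40891 to 43876 with ezetimibe and 91883 to 98116 with the combination. Markers could not check the cell type, because the tables list changed genes only: of 10 epithelial markers 0, 1 and 2 were in the fenofibrate, ezetimibe and combination tables, and of 6 immune markers none was in any.

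Of the 49 genes, 46 were higher and 3, PCDH17, CALB1 and CENPE, were lower with every treatment, and no gene changed sign between treatments. The interaction was the combination change minus the fenofibrate and ezetimibe changes, on log2(normalised read count + 1), so that a value of 0 means that the fold changes multiply. A gene exceeded the sum when its interaction passed an adjusted p-value of 0.05 in the direction of its own change, and fell short when it passed in the opposite direction. By limma with Benjamini-Hochberg adjustment, 35 genes passed, or 71.4% of those tested. The combination exceeded the sum in 8 genes (16.3%), fell short in 27 (55.1%) and was not distinguished from it in 14 (28.6%). At an unadjusted p-value under 0.05, 37 genes passed. The median interaction in the direction of the change was −0.60, with a range of −1.99 to 2.89. The shares and the median describe genes selected with the same libraries, and the tilt from that selection was not tested. Of the 14 genes not distinguished, 10 had a 95% interval within 1 log2 unit either way.

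**Figure D1:**
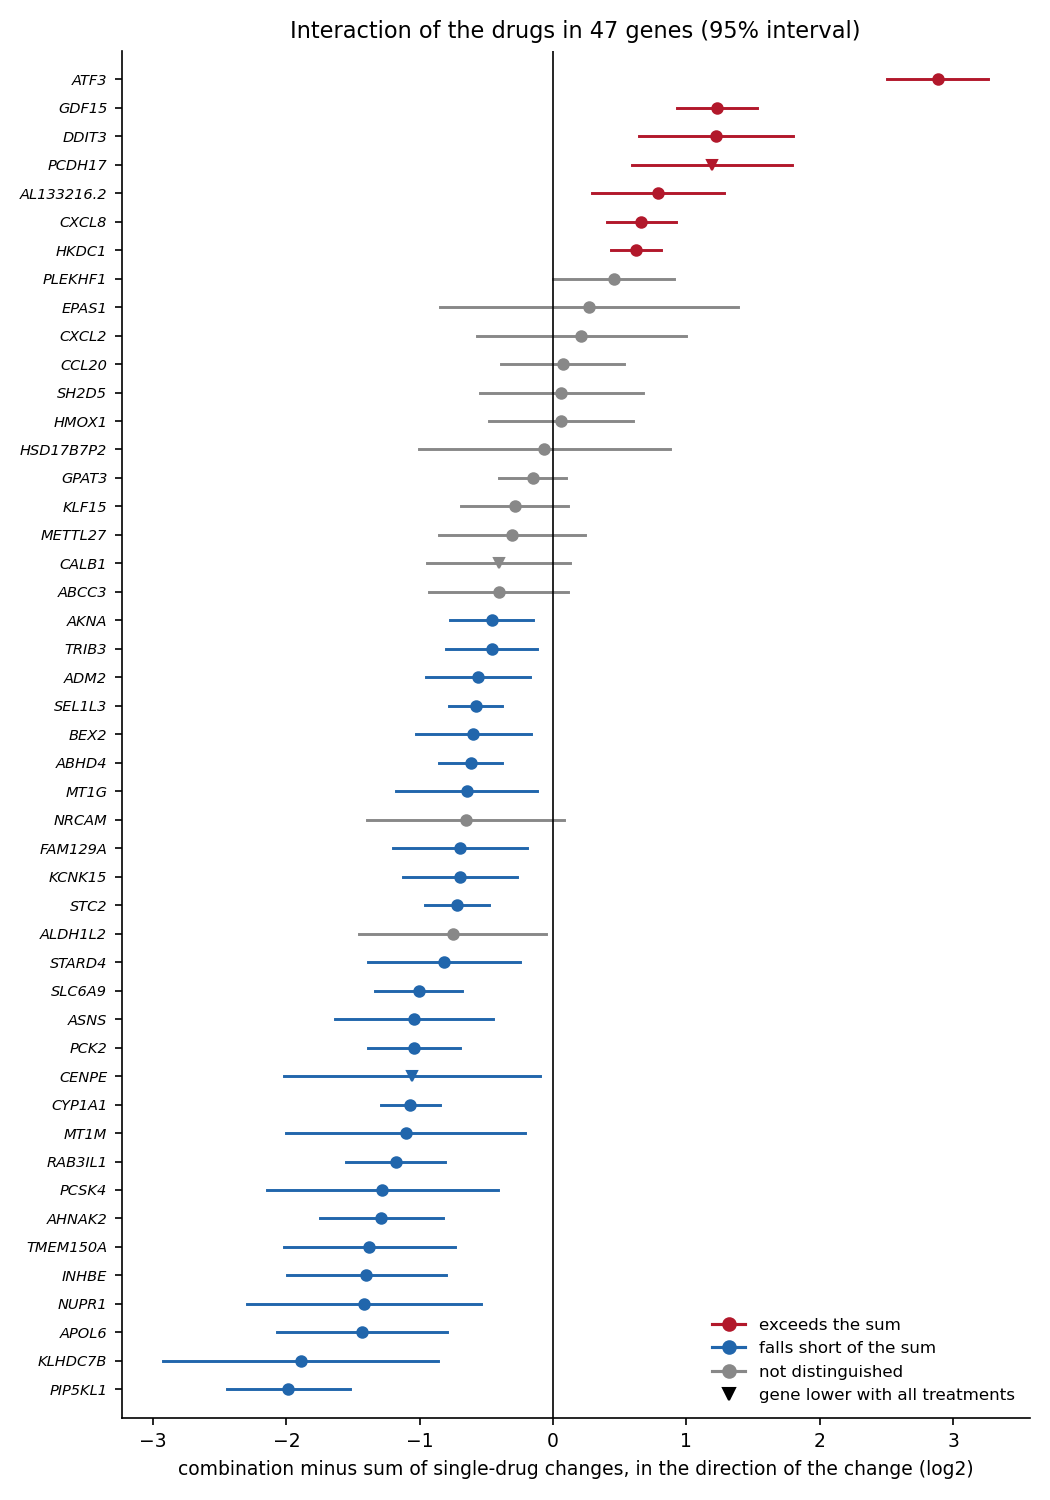
Interaction of 47 of the 49 genes, in the direction of its change, on the log2(normalised read count + 1) scale, with 95% limma intervals. The 7 genes shown that exceeded the sum run from HKDC1 to ATF3, and the 26 shown that fell short reach −1.99 at PIP5KL1.

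In 18 of the 27 genes that fell short of the sum, the combination still gave a larger response than either drug alone. The combination went beyond fenofibrate in 42 genes (85.7%) and beyond ezetimibe in 38 (77.6%), and beyond both in 38 (77.6%), by limma with Benjamini-Hochberg adjustment over the 49 genes. The other 20 beyond both were all 8 genes that exceeded the sum and 12 of the 14 not distinguished. The combination libraries overlapped none of the fenofibrate libraries in 41 genes (83.7%) and none of the ezetimibe libraries in 38 (77.6%). The ezetimibe change was larger than the fenofibrate change in 42 of the 49 genes.

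The stress-induced transcription factors ATF3 and DDIT3 and the stress hormone GDF15 lay furthest above the sum. ATF3 encodes a basic leucine zipper transcription factor of the ATF and CREB family and lies at chr1:212565334-212620777 (hg38, plus strand). Its normalised read counts were 61.5, 51.4 and 60.8 with DMSO, 137, 152 and 123 with fenofibrate, 161, 166 and 158 with ezetimibe and 3148, 2684 and 2649.7 with the combination. The 3 combination libraries stood far above the other 9, and the 2 single drugs lay close to each other. A log2 sum of the single changes corresponds to a level of 381, whereas the combination mean was 2827. The interaction was 2.89 ± 0.17 (SE, log2), or 7.39-fold the level at the sum (95% interval 5.68 to 9.62; limma, adjusted p = 7.28e-08).

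DDIT3 at chr12:57516588-57521737 (minus strand) encodes CHOP, a transcription factor of the stress response linked to cell death. Its normalised read counts were 108, 122 and 141 with DMSO, 239, 362 and 240.2 with fenofibrate, 378, 307 and 335 with ezetimibe and 2215, 1497 and 1646 with the combination. No combination library overlapped a single-drug library, although the combination values spread more than those of ATF3. The interaction was 1.22 ± 0.26, or 2.33-fold the level at the sum (1.56 to 3.48; limma, adjusted p = 0.00167). GDF15 at chr19:18374731-18389176 (plus strand) encodes a hormone secreted under stress, which acts on the brain receptor GFRAL to lower food intake. Its normalised read counts were 735, 651 and 616 with DMSO, 1701, 1893 and 1738 with fenofibrate, 2390.2, 2447 and 2429.7 with ezetimibe and 17488, 13305 and 14919.5 with the combination. All 3 combination libraries were above every other library, with an interaction of 1.23 ± 0.14 and 2.34-fold the level at the sum (1.90 to 2.89; limma, adjusted p = 1.29e-05).

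The other 5 members on the list of ATF4-linked stress genes rose further with both drugs than with either, yet by less than the sum. TRIB3 encodes a pseudokinase that binds ATF4 and CHOP. Its normalised read counts were 848, 888 and 837 with DMSO, 2692, 3468 and 2773 with fenofibrate, 5039.7, 5222 and 4968 with ezetimibe and 14944, 11289 and 12169 with the combination. The combination libraries were the highest, but lay below the level of 17505 given by the log2 sum (interaction −0.46 ± 0.16; limma, adjusted p = 0.0183). STC2 encodes a secreted glycoprotein, and its values were 562, 591 and 524 with DMSO, 1719, 1637 and 1797 with fenofibrate, 2722, 2756 and 2449.6 with ezetimibe and 5148, 4535 and 5106 with the combination. These groups did not overlap either, and the interaction was −0.72 ± 0.11 (adjusted p = 0.000135). FAM129A, which encodes the stress protein NIBAN1, rose by 4.05 with ezetimibe and 5.29 with the combination on the log2 scale, with an interaction of −0.70 ± 0.23 (adjusted p = 0.0166). NUPR1 encodes a small nuclear protein induced by stress, which is also a transcriptional regulator. Its values were 73.3, 92.7 and 34.2 with DMSO, 412, 462 and 424 with fenofibrate, 503, 403 and 398 with ezetimibe and 1355, 928 and 1117 with the combination. The combination libraries were again the highest, and the interaction was −1.42 ± 0.40 (adjusted p = 0.00858). INHBE, which encodes the βE subunit of activins, had 65.4, 47.7 and 37.4 with DMSO, 173, 199 and 222 with fenofibrate, 291, 319 and 324 with ezetimibe and 541, 479 and 397 with the combination, and an interaction of −1.40 ± 0.27 (adjusted p = 0.00085).

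Within the list of 21 ATF4-linked stress genes, 8, 12 and 17 were in the fenofibrate, ezetimibe and combination tables, and 8 were in all 3. Of these, 3 exceeded the sum and 5 fell short, with a median interaction of −0.58, beside −0.60 over all 49 genes. All 8 went beyond both single drugs, as did 38 of all 49 genes (77.6%). When the combination values were raised by 25%, an alternative scale chosen after seeing the data, TRIB3 and FAM129A no longer fell short.

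**Figure D2:**
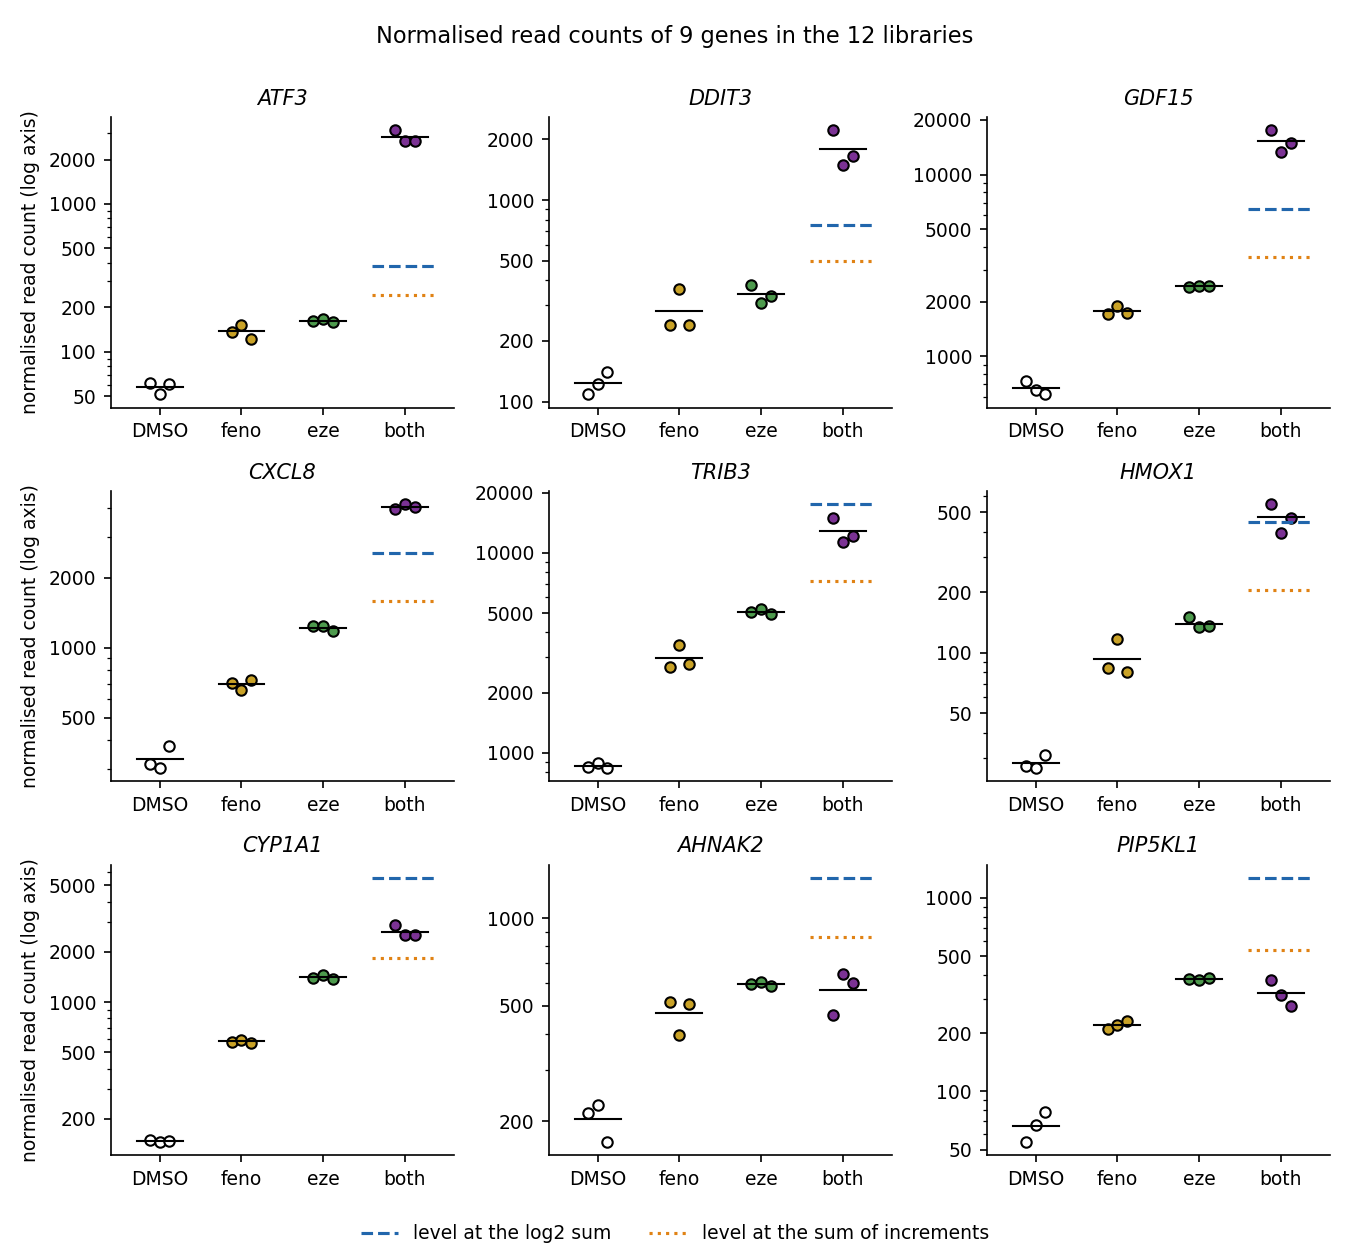
Normalised read counts (log axes) of 9 genes in the 12 libraries, with DMSO, fenofibrate (feno), ezetimibe (eze) and both drugs (both); points are libraries, black lines group means, dashed lines the level at the log2 sum and dotted lines the level at the sum of increments. ATF3, DDIT3, GDF15 and CXCL8 lie above both lines, and AHNAK2 and PIP5KL1 below both.

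Of 3 genes for amino acid supply, downstream of ATF4, 2 fell short and 1 was not distinguished. Over all 49 genes, 27 fell short and 14 were not distinguished. ASNS makes asparagine, and its values were 29.3, 24.8 and 35.2 with DMSO, 87.2, 67.5 and 87.0 with fenofibrate, 156, 118 and 132 with ezetimibe and 142, 191 and 192 with the combination. The combination lay above fenofibrate by 1.11 ± 0.19 and above ezetimibe by 0.37 ± 0.19 (adjusted p = 0.102), so only the first difference passed. Its interaction was −1.05 ± 0.27 (limma, adjusted p = 0.00518). SLC6A9, the glycine transporter GlyT1, had 356, 335 and 267 with DMSO, 864, 865 and 834 with fenofibrate, 1259, 1285 and 1269.8 with ezetimibe and 1927, 1604 and 1591 with the combination. All 3 combination libraries were above the ezetimibe libraries, and the interaction was −1.01 ± 0.15 (adjusted p = 0.000135). ALDH1L2, a mitochondrial enzyme of one-carbon folate metabolism, had an interaction of −0.75 ± 0.32 (adjusted p = 0.051), just outside the threshold. It passed when fenofibrate replicate 2 or combination replicate 2 was left out and by DESeq2 on the whole reads behind the normalised values (adjusted p = 0.0384) but not by edgeR, whereas without combination replicate 1 it was −0.47 (adjusted p = 0.103). Of the 46 genes of the amino acid, folate and tRNA-charging list, 3, 10 and 16 were in the 3 tables in the order above, and 3 were in all. The median interaction of these 3 was −1.01, beside −0.60 over all 49 genes.

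Among the chemokines CXCL8 exceeded the sum, and CCL20 and CXCL2 were not distinguished from it. CXCL8 encodes interleukin 8, which attracts neutrophils, and lies at chr4:73740506-73743716 (plus strand). Its values were 316, 302 and 377 with DMSO, 703, 655 and 726 with fenofibrate, 1238, 1246 and 1175 with ezetimibe and 3965, 4158 and 4027 with the combination. The combination libraries stood well apart, and the interaction was 0.66 ± 0.12, or 1.58-fold the level at the sum (1.32 to 1.89; limma, adjusted p = 0.000441). CCL20, a ligand of the receptor CCR6, had 43.0, 45.9 and 39.5 with DMSO, 95.3, 121 and 118 with fenofibrate, 154, 144 and 136 with ezetimibe and 446, 389 and 342 with the combination. The combination mean of 392 was close to the 371 of the log2 sum, with an interaction of 0.07 ± 0.21 (95% interval −0.39 to 0.53; adjusted p = 0.785). CXCL2, which shares sequence with neighbouring chemokine genes so that its reads are uncertain, had 38.1, 47.7 and 77.9 with DMSO, 114, 114 and 102 with fenofibrate, 169, 111 and 196 with ezetimibe and 407, 345 and 373 with the combination. Its interaction was 0.21 ± 0.36 (−0.57 to 1.00; adjusted p = 0.629). Of the 27 genes of the NF-kB and chemokine list, 3, 8 and 18 were in the 3 tables and these 3 in all. Their median interaction was 0.21, which is the value of CXCL2, beside −0.60 over all 49 genes.

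Of 25 NRF2 and haem stress genes, 2, 8 and 14 were in the 3 tables, and the 2 in all, HMOX1 and ABCC3, were not distinguished from the sum. HMOX1 encodes haem oxygenase 1, which degrades haem. Its values were 27.3, 26.6 and 31.0 with DMSO, 84.1, 117 and 80.1 with fenofibrate, 150.2, 134 and 136 with ezetimibe and 549, 396 and 470.2 with the combination. The combination libraries lay above all others and on both sides of the 448 of the log2 sum, with an interaction of 0.06 ± 0.25 (−0.48 to 0.60; limma, adjusted p = 0.84). ABCC3, an efflux transporter of organic anions, had an interaction of −0.41 ± 0.24 (−0.93 to 0.11; adjusted p = 0.14). It was −0.26 without DMSO replicate 3, and fell short at −0.73 with combination values lowered by 20% (adjusted p = 0.0138). CYP1A1, a detoxifying monooxygenase and classic target of the aryl hydrocarbon receptor, fell short, the 1 gene of 18 on that list in all 3 tables. Its values were 149, 145 and 147 with DMSO, 578, 596 and 570.3 with fenofibrate, 1395, 1457 and 1372 with ezetimibe and 2880.4, 2531 and 2511 with the combination. The groups were well separated, and the interaction was −1.07 ± 0.10, or 2.10-fold below the level at the sum (adjusted p = 3.44e-06).

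The sterol gene STARD4 fell short of the sum. STARD4, which carries cholesterol between membranes, had 124, 145 and 149 with DMSO, 495, 322 and 448 with fenofibrate, 392, 337 and 333 with ezetimibe and 458, 684 and 666 with the combination. The combination passed beyond both single drugs, although combination replicate 1 lay within the fenofibrate range, with an interaction of −0.82 ± 0.26 (limma, adjusted p = 0.0145), which did not pass when the combination values were raised by 25%. Of 32 cholesterol synthesis and SREBP2 target genes, 19, 9 and 9 were in the fenofibrate, ezetimibe and combination tables, and 2 in all. Both of these fell short, as did 27 of all 49 genes.

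No gene of the unfolded protein response list could be compared: of 31, 0, 15 and 22 were in the fenofibrate, ezetimibe and combination tables. The same held for the 35 genes of PPARα and fatty acid oxidation, with 0, 2 and 3. The unfolded protein response list does not hold DDIT3, ATF3 or TRIB3, which were counted with the ATF4-linked stress genes.

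The rule leaves out 11 genes that were in both single-drug tables but not in the combination table, and so had no combination values here. Among them were the sterol genes MSMO1, FDFT1, DHCR7, INSIG1 and SREBF2, and NPC1L1, the target of ezetimibe. In the authors' deposited table, NPC1L1 had log2 fold changes of 1.91 with fenofibrate and 1.61 with ezetimibe. For INSIG1, the sterol-sensing anchor of SREBP2's escort protein, the authors' deposited table gives 2.14 and 1.31. A gene is listed only if the authors' log2 fold change with the combination was above 1 in size, so genes with a smaller joint change on the authors' scale are not among the members.

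In 7 genes the combination passed beyond neither drug, among them APOL6, TMEM150A, AHNAK2, PCSK4, MT1M and CENPE, and all 7 fell short. In another 4, PIP5KL1, ASNS, ALDH1L2 and NRCAM, it passed beyond fenofibrate only. PIP5KL1, which encodes a phosphatidylinositol phosphate kinase-like protein at chr9:127920879-127930797 (minus strand), had the lowest interaction. Its values were 54.7, 67.0 and 77.9 with DMSO, 211, 221 and 232 with fenofibrate, 383, 375 and 386 with ezetimibe and 375, 314 and 277 with the combination. The combination exceeded fenofibrate by 0.53 ± 0.15 but was −0.25 ± 0.15 against ezetimibe (adjusted p = 0.141), with an interaction of −1.99 ± 0.21 (limma, adjusted p = 9.24e-06). APOL6, an apolipoprotein L family member, had 41.0, 59.7 and 51.2 with DMSO, 132, 91.6 and 123 with fenofibrate, 169, 131 and 121 with ezetimibe and 96.5, 133 and 121 with the combination. Its combination libraries overlapped those of both single drugs, and the interaction was −1.43 ± 0.29 (adjusted p = 0.00116). AHNAK2, a giant scaffold protein, had 214, 228 and 169.7 with DMSO, 515, 396 and 506 with fenofibrate, 597, 602 and 586 with ezetimibe and 464, 641 and 600.4 with the combination. Its ezetimibe and combination libraries overlapped, and the interaction was −1.29 ± 0.21 (adjusted p = 0.00024). For TMEM150A and PCSK4 the interactions were −1.38 ± 0.29 and −1.28 ± 0.40. PCSK4 did not pass with combination values raised by 25%. MT1M, a metallothionein near-identical to its neighbours so that its reads are uncertain, had an interaction of −1.10 ± 0.41 (limma, adjusted p = 0.0297). It did not pass without DMSO replicate 1 or 2, ezetimibe replicate 1 or 2, or combination replicate 3. Over all fits that left out 1 library, passing or not, its interaction ran from −1.42 to −0.72.

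**Figure D3:**
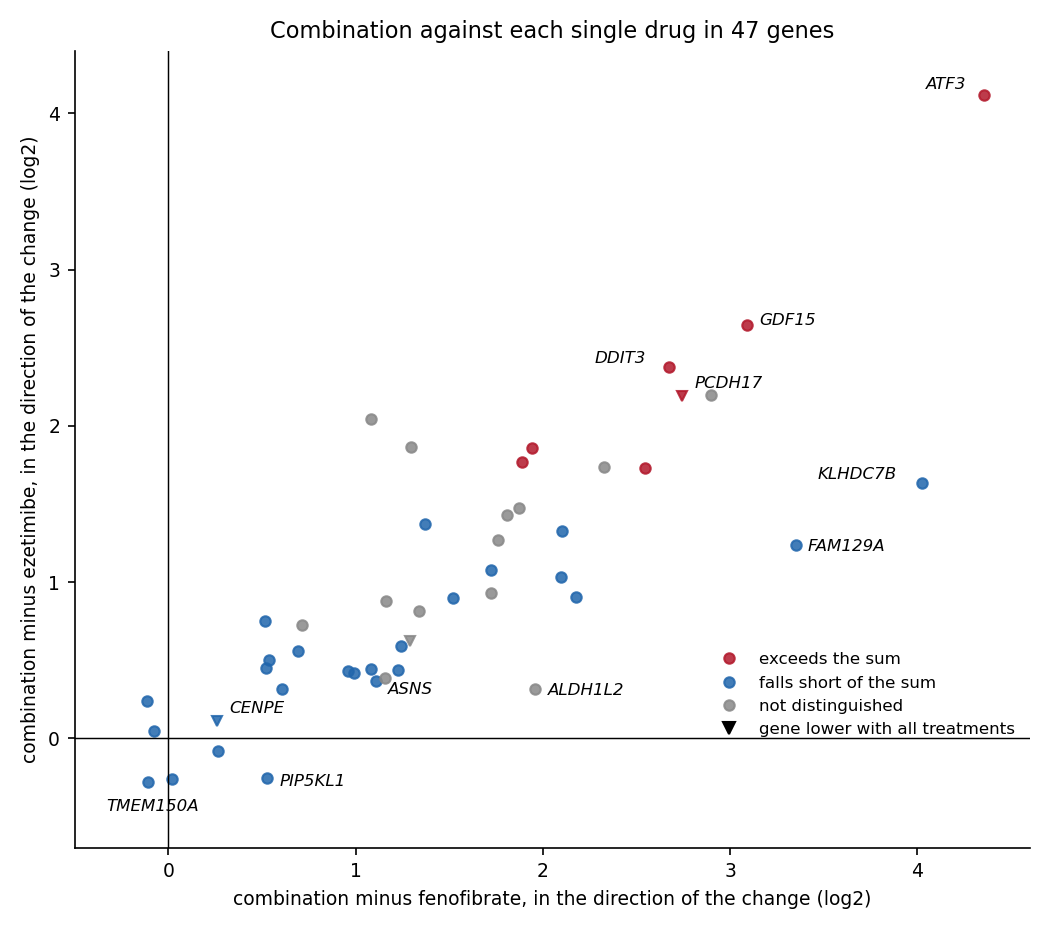
Difference between the combination and fenofibrate (x axis) and ezetimibe (y axis) in 47 of the 49 genes, in log2 units in the direction of the change. ATF3, GDF15 and DDIT3 lie far from 0 on both axes, and TMEM150A and CENPE lie near 0 on both.

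KLHDC7B and RAB3IL1 rose beyond both drugs and fell short. KLHDC7B, a kelch-domain protein gene, had 8.79, 18.4 and 4.27 with DMSO, 115, 108 and 121 with fenofibrate, 630.5, 629 and 554 with ezetimibe and 1995, 1776 and 1853 with the combination. It was nearly silent with DMSO and highest with the combination, yet its interaction was −1.89 ± 0.47 (limma, adjusted p = 0.00418) against a log2 sum of 9.44. With a pseudocount of 10 the interaction was −1.04 (adjusted p = 0.00613). RAB3IL1, a guanine nucleotide exchange factor for Rab GTPases, had 132, 151 and 113 with DMSO, 400.4, 405 and 416 with fenofibrate, 397, 435 and 456 with ezetimibe and 644, 522 and 596 with the combination, with an interaction of −1.18 ± 0.17 (adjusted p = 0.000123). The remaining genes that fell short, chosen after their values were seen, were PCK2, KCNK15, MT1G, ABHD4, BEX2, SEL1L3, ADM2 and AKNA, with interactions from −1.05 ± 0.16 to −0.46 ± 0.14. MT1G, another metallothionein with the same limit on its reads, did not pass without DMSO replicate 3, fenofibrate replicate 2, ezetimibe replicate 1 or combination replicate 3. Over all fits that left out 1 library, passing or not, its interaction ran from −0.78 to −0.46. With combination values raised by 25%, KCNK15, MT1G, MT1M, BEX2, ADM2 and AKNA did not pass.

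Outside the stress lists, HKDC1, AL133216.2 and PCDH17 were among the genes that exceeded the sum. HKDC1, a hexokinase, had 413, 403 and 380.0 with DMSO, 886, 879 and 889 with fenofibrate, 943, 967 and 968 with ezetimibe and 3423, 3175 and 3226 with the combination. The combination libraries were the highest, with an interaction of 0.62 ± 0.09 (limma, adjusted p = 9.15e-05). AL133216.2, a pseudogene related to GTF2I whose reads may come from its parent, had an interaction of 0.79 ± 0.23 (adjusted p = 0.00955). With combination values lowered by 20%, AL133216.2 no longer passed (adjusted p = 0.0806). GPAT3, which starts glycerolipid synthesis, and SH2D5, an SH2-domain adaptor, were not distinguished from the sum, with interactions of −0.15 ± 0.11 and 0.06 ± 0.28. GPAT3 was at −0.062 without DMSO replicate 2. Of the others not distinguished, PLEKHF1, HSD17B7P2, KLF15, METTL27 and NRCAM, named after their values were seen, ranged from −0.66 ± 0.34 to 0.45 ± 0.21. PLEKHF1 exceeded the sum without DMSO replicate 3 or fenofibrate replicate 3, and NRCAM fell short without combination replicate 3. With combination values lowered by 20%, GPAT3, KLF15, METTL27, NRCAM, ABCC3 and ALDH1L2 fell short, with GPAT3 at −0.48 (adjusted p = 0.00238). With values raised by 25%, PLEKHF1 exceeded the sum and CALB1 fell short. PLEKHF1 also exceeded it by edgeR (adjusted p = 0.0495) and DESeq2 (0.0355) on the whole reads. EPAS1, which encodes the hypoxia factor HIF-2α and was the 1 gene of 26 on the hypoxia list in all 3 tables, had 14.7, 48.7 and 43.8 with DMSO, 136, 90.4 and 152 with fenofibrate, 219, 206 and 179 with ezetimibe and 784, 988 and 1019.9 with the combination. DMSO replicate 1 was lowest, and the interaction of 0.27 ± 0.51 (adjusted p = 0.661) became 0.80 and passed without it.

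The 3 lower genes divided among the classes. PCDH17, a protocadherin of cell adhesion, had 212, 211 and 232 with DMSO, 108, 104 and 113 with fenofibrate, 83.3, 59.7 and 79.6 with ezetimibe and 19.7, 15.8 and 11.5 with the combination. The combination libraries were far below the others, so it exceeded the sum in the downward direction (interaction −1.19 ± 0.27; limma, adjusted p = 0.0025). With a pseudocount of 10 the interaction was −0.77 (adjusted p = 0.00803). CALB1, which binds calcium and was named after its values were seen, had 182, 236 and 254 with DMSO, 91.2, 117 and 119 with fenofibrate, 58.6, 75.1 and 70.1 with ezetimibe and 41.6, 47.3 and 42.1 with the combination, and was not distinguished from the sum (0.41 ± 0.25; adjusted p = 0.152). CENPE, the kinetochore motor and the 1 gene of 40 on the mitotic list in all 3 tables, had 1318, 1193 and 1601 with DMSO, 704, 436 and 724 with fenofibrate, 577, 504 and 558 with ezetimibe and 279, 802 and 576 with the combination. The 3 treated groups overlapped, and the interaction was 1.06 ± 0.44 (adjusted p = 0.0471). It did not pass without DMSO replicate 1 or 3, fenofibrate replicate 2, any 1 ezetimibe library, or combination replicate 2 or 3. Over all fits that left out 1 library, passing or not, its interaction ran from 0.72 to 1.48.

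The sum depends on the scale. Added increments over DMSO give a lower level than multiplied fold changes, and against that sum 25 genes (51%) exceeded and 10 (20.4%) fell short. Of those 10, 3 are the lower genes, for which the sum of increments lies below 0, at −35.6 for PCDH17, and cannot be reached, so they say nothing here. Of the 46 higher genes, all 7 that exceeded the log2 sum exceeded the sum of increments. So did 8 of the 26 that fell short on the log2 scale, TRIB3, STC2, FAM129A, NUPR1, CYP1A1 and KLHDC7B among them. The same held for 10 of the 13 higher genes not distinguished on the log2 scale, with HMOX1, ABCC3, CCL20 and CXCL2 among them. Another 11 that fell short on the log2 scale were not distinguished from the sum of increments, including ASNS, SLC6A9, INHBE and STARD4. On both scales 7 higher genes fell short, among them PIP5KL1, APOL6, TMEM150A, AHNAK2, PCSK4 and RAB3IL1.

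**Figure D4:**
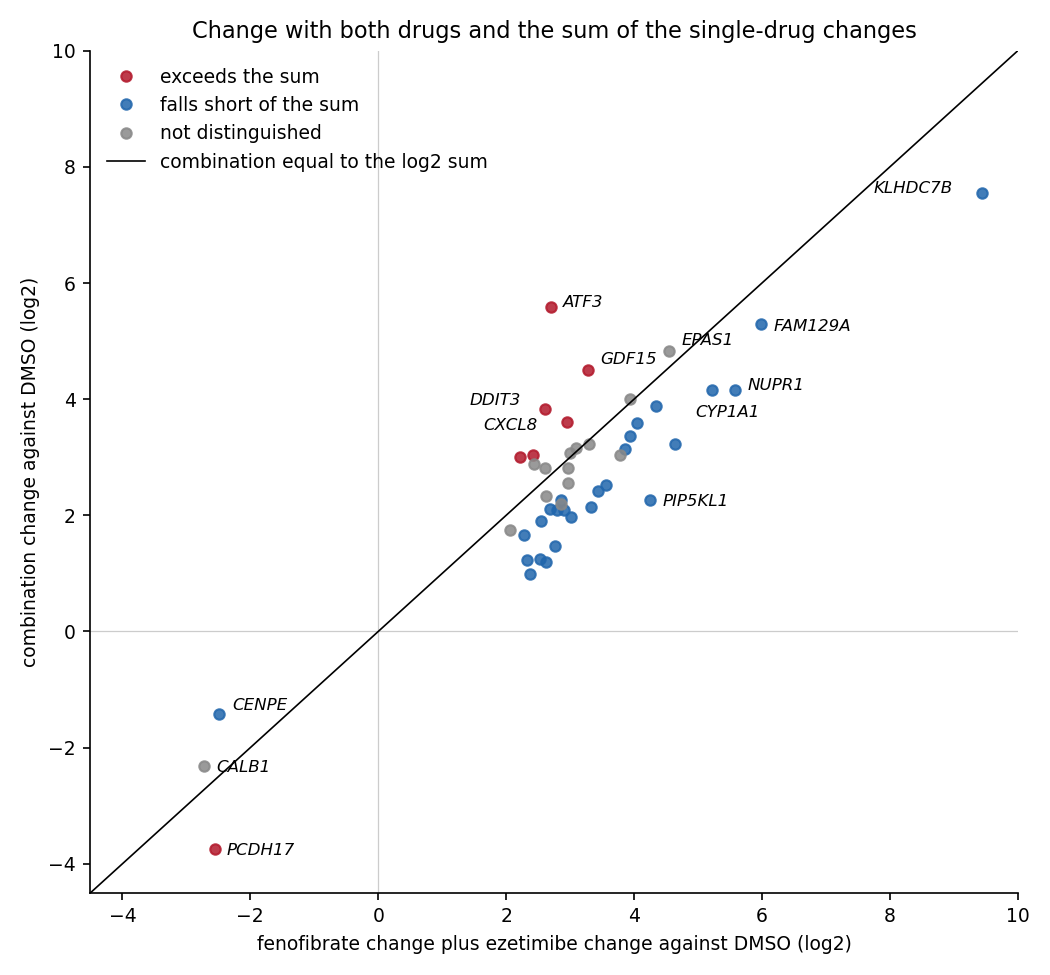
Combination change (y axis) and summed fenofibrate and ezetimibe changes (x axis), in log2 units relative to DMSO, for 47 of the 49 genes; the line marks equality. ATF3 lies furthest above the line, and PIP5KL1 and KLHDC7B furthest below it.

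Promoters are shown because ATF3, DDIT3 and CXCL8, which exceeded the sum, can be set beside ASNS and KLHDC7B, which fell short. RefSeq windows (GRCh38.p14) matched 33 of the 49 genes, with 46 start sites. In the 250 bases before each start, 12 patterns were searched on both strands, and the 3 patterns described here and the 5 promoters were chosen after the matches were seen. ATF3, DDIT3 and ASNS have 2 windows each, of which 1 with a match is shown, and RefSeq starts can differ from the gene starts in the authors' tables. Capitals mark TGATGNAAN, bound by C/EBP and ATF dimers, in ATF3, ASNS and KLHDC7B, and TGANTCA, bound by AP-1, in DDIT3 and CXCL8. The windows are chr1:212565157-212565406 (plus strand), chr12:57520515-57520764 (minus), chr4:73740319-73740568 (plus), chr7:97872409-97872658 (minus) and chr22:50545649-50545898 (plus), each printed on its gene's strand.
ATF3: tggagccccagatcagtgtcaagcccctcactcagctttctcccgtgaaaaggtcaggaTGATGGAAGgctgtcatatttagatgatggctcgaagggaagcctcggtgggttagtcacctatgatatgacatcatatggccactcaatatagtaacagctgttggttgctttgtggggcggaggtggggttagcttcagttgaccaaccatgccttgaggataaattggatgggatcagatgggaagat
DDIT3: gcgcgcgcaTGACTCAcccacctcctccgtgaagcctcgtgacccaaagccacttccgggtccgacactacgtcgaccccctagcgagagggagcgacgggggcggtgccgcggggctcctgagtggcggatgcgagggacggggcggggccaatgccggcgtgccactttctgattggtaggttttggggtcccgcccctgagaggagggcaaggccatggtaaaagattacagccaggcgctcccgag
CXCL8: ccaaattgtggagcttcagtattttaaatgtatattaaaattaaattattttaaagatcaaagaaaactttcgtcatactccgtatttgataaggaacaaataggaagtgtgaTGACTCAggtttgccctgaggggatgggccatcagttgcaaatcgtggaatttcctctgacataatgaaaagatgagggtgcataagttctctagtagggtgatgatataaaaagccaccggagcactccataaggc
ASNS: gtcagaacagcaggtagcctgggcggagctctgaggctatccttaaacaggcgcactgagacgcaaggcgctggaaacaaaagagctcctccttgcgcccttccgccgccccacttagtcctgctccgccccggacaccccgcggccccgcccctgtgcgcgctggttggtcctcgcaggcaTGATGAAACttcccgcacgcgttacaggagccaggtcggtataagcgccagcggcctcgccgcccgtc
KLHDC7B: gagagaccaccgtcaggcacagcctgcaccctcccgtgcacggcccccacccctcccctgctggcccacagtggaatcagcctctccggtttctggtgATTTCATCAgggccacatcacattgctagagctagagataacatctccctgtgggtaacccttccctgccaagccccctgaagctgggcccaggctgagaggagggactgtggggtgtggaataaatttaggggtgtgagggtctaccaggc

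TGATGNAAN was in 3 of the 33 genes and in 3.13% of 35116 promoter windows, and it occurred on both sides of the sum. TGANTCA was in CXCL8, DDIT3 and NRCAM and in 6.57% of windows, and the cyclic AMP response element TGACGTCA in CENPE and NRCAM and in 1.65%. None of the 33 genes held TGATGCAA (0.772% of all windows) or the sterol element TCACCCCAC (0.362%). The NF-kB consensus (0.179%) and the endoplasmic reticulum stress element ERSE (0.074%) were also absent from their windows. The other members had no window and were not searched. Sites that differ from the searched letters were not counted, so these absences do not show that such sites are lacking. Of the 33 genes, the short CRE motif TGACGT was in 5 (7.1% of all windows), the core XRE motif GCGTG in 21 (32.2%) and the core ARE motif TGACNNNGC in 1 (10.9%). The metal response motif TGCGCNC was in 8 (16.8%) and a loose form of the NF-kB site in 27 (54.4%). Gene counts take a match in any window of the gene, whereas the percentages are shares of single windows, so they cannot be compared directly. A match describes letters only.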

How the data were processed

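RNA-seq libraries of Cal51 cells given the vehicle, either drug or both were compared, 3 per group. Per the submitters' processing notes, fastp, HISAT2 2.0.5, featureCounts 1.5.0-p3 and hg38 were used. The deposited signal values are normalised read counts per gene: multiplied by 1 factor per library they gave whole reads (within 0.001) for 100% of values, so the authors divided counts by size factors. Per the file headers, the authors also deposited log2 fold changes with p-values and adjusted p-values; the tool behind them was not given in the sources used here.

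DMSO columns in the 3 tables held the same reads (1272 of 1272 pairs), so fenofibrate values were multiplied by 1.03 and ezetimibe values by 0.997 to reach the combination table's scale. On log2(value + 1), limma 3.58.1 (R 4.3.3) with trend fitted 4 group means over the 49 genes, and the interaction and the contrasts with each drug were adjusted by Benjamini-Hochberg, 2-sided, threshold 0.05. The fit was also run on simulated data, with the same spread setting for every gene and no selection into tables. That run therefore does not give the error rate of the calls made here. Alternatives, among them edgeR 4.0.16 and DESeq2 1.42.0 on the recovered reads with the size factors behind the deposited values, changed the test, pseudocount, filter, scale, block, moderation and libraries. Genes were named by rank of the interaction (10 highest and 10 lowest that passed, with a mean of at least 50), by 5 values nearest 0 and by up to 4 members per list, with others marked where named; 2 genes of the 49 entered the fit and counts but are not reported here individually. The members and lists were chosen with earlier results of these data known. Intervals cover the spread between libraries only.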

Additional observations from a re-analysis of the deposited data

How the results depend on the processing

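The 8 genes that exceeded the sum also did so under pseudocounts of 0.5 and 10, without rescaling, without trend, with robust moderation and in each fit that left out 1 library. Leaving out 1 library gave 8 to 9 genes exceeding, 24 to 27 falling short and 13 to 17 not distinguished. It gave 39 to 41 genes higher and 2 to 3 lower than fenofibrate (40 and 2 with all libraries), and 35 to 38 higher and 2 to 3 lower than ezetimibe (36 and 2). Fenofibrate replicate 2 and combination replicate 1 were both lowest in their groups in ALDH1L2, CENPE, FAM129A, STARD4 and NRCAM. Both were highest in DDIT3, TRIB3, MT1G and BEX2. In other genes, such as KLHDC7B and SH2D5, the former was lowest and the latter highest. These genes were picked after their values were seen, and the cause was not tested. Calls that depend on either library may thus not be independent between genes. A mean of at least 50 removed no gene. With the sum of increments, 25 genes exceeded and 10 fell short, since that sum is lower by construction; 3 of the 10 are lower genes, whose sum lies below 0. Raising the combination values by 25%, chosen after seeing the data, left 9 exceeding, 18 falling short and 22 not distinguished, with 1 gene lower than ezetimibe. Lowering them by 20% gave 6 exceeding, 32 falling short and 11 not distinguished, with 7 lower than ezetimibe, and the median interaction of −0.60 became −0.30 with the raised and −0.90 with the lowered values. The tables list changed genes only, so the authors' size factors could not be checked.

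Values near 0 changed sign. With pseudocount 10 HSD17B7P2 was 0.22, the cause of which was not tested. Raised by 25%, HSD17B7P2 was 0.25, GPAT3 0.17, KLF15 0.032 and METTL27 0.012. Lowered by 20%, EPAS1 was −0.051, CXCL2 −0.11, CCL20 −0.25, SH2D5 −0.26 and HMOX1 −0.26. Leaving out 1 library gave −0.032 to 0.80 for EPAS1, −0.072 to 0.43 for CXCL2, −0.035 to 0.17 for CCL20, −0.094 to 0.24 for SH2D5, −0.053 to 0.23 for HMOX1 and −0.33 to 0.31 for HSD17B7P2.

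With the replicate block, 8 genes exceeded, 26 fell short and 15 were not distinguished, CENPE being lost (limma, adjusted p = 0.0606). To look for pairing, each gene's group mean was subtracted from its log2 values, and the remaining deviations were correlated between libraries of different groups. These deviations correlated above 0.1 in 5 of 18 same-numbered pairs (Pearson r −0.63 to 0.48). In 10 of 36 comparisons a library matched best to its own number. CENPE also did not pass without trend (0.0619), with robust moderation (0.059) or with combination values lowered (0.148). PLEKHF1 passed with pseudocount 10 (0.0434). On recovered whole reads, edgeR gave 9 genes exceeding, 27 falling short and 13 not distinguished, and DESeq2 9, 28 and 12; all 35 calls by limma were among them, with PLEKHF1 added by both tools and ALDH1L2 by DESeq2.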

Other observations

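Of the 49 genes, 4 pairs lie within 100 kb of each other, and in 2 of these pairs the partners fell into different classes. INHBE, which fell short of the sum, lies 57.3 kb from DDIT3, which exceeded it, on chromosome 12. HSD17B7P2, not distinguished from the sum, lies 24.7 kb from AL133216.2, which exceeded it, on chromosome 10. Both are pseudogenes, whose reads may come from their parent genes. In the other pairs both partners fell short: MT1M and MT1G, 32.7 kb apart on chromosome 16, and ADM2 and KLHDC7B, 59.5 kb apart on chromosome 22. These pairs were found after the values were seen, and no test was run on them.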
